A study of Mus musculus with 20 samples.

Results

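The genes described here are 10 ligands, receptors and target genes of the Notch pathway: the ligands Dll4, Jag1 and Jag2, the receptors Notch1, Notch2 and Notch4, and the targets Hey1, Hey2, Hes1 and Nrarp. They were chosen by symbol, as 10 of the 46983 gene IDs in the files, and followed through 20 bulk RNA-seq libraries of CD31-positive cells sorted from E0771 tumours. This mouse mammary carcinoma line was implanted in the mammary fat pad, and tumours were taken at 500 mm3. All hosts were C57BL/6J mice. The submitters class 3 host backgrounds as deficient for CD4 T cells. In Tie2Cre_H2Abf (n = 4) a floxed H2Ab allele, fl/fl, is combined with Tie2Cre, a Cre recombinase driven in endothelial and blood-forming cells, so loss of the MHC class II beta chain is not limited to endothelium. The others are labelled TCRKO (n = 3) and CD4KO (n = 3), for knockouts of the T cell receptor and of CD4. The CD4-competent backgrounds are Tie2Cre alone (n = 3), CD8KO (n = 3) and WT (n = 4). The labels name no alleles for the knockouts and do not say whether each library came from a separate mouse, so p-values measure the spread between these libraries, which may be technical.

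Notch signalling passes between touching cells: a ligand of the Delta-like or Jagged family on one cell binds a Notch receptor on its neighbour, the receptor is cut by ADAM proteases and gamma-secretase, and its intracellular part enters the nucleus and joins RBPJ at target genes. In growing vessels Dll4 is typical of tip and arterial cells and restrains sprouting by its neighbours, while Jag1 opposes it there when the receptor carries Fringe-added sugars. Hey1, Hey2 and Hes1 are repressors switched on by the pathway, and Nrarp is a target that dampens it.

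Total counts ran from 1543847 to 11478902 per library, with a median of 7531926, and one ribosomal RNA gene held 9.89% to 82.1% of them. The sort left a strong endothelial profile, with Pecam1, the gene of CD31, between 435 and 1377 CPM (counts scaled to equal library size, with sizes adjusted by TMM) and Cdh5, an adhesion protein of endothelial junctions, between 672 and 1909 CPM. H2-Ab1 had 0.712 to 6.37 CPM in Tie2Cre_H2Abf libraries, against 25.3 to 96.2 CPM in Tie2Cre libraries. The checks of 2 other labels did not come out this way. Cd4 had 4.22 to 15.7 CPM in libraries labelled CD4KO, against 0.379 to 15.6 CPM in WT libraries. Cd8a had 39.0 to 69.8 CPM in libraries labelled CD8KO, against 0 to 2.46 CPM in WT libraries. The T cell receptor genes Trac, Trbc1 and Trbc2 stayed under 2 CPM in every library and check nothing. The libraries WT_9771 and Tie2Cre_9501 stood apart, with 47.1% and 19.7% of their counts in satellite-like genes, against at most 2.53% in the other 18. Beside the main differences between backgrounds, values are also given without these 2 libraries; the other pathway genes are given with all 20. CD8KO_9752, which those values keep, stood apart in its scaling. It had the lowest ribosomal share, 9.89% where the next lowest was 32.2%, and the highest TMM factor, 3.69 where the next was 1.77. Its Dll4 level was the lowest of the CD8KO libraries at 79.7 CPM but the highest of all 20 at 118 TPM. The library names carry the numbers in the labels.

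Promoters are shown first for 3 of the 4 members whose Tie2Cre_H2Abf values in CPM all lay above their Tie2Cre values. With edgeR 0 members passed the test of that difference. The promoters come from the RefSeq table of GRCm38.p6, which held 8 of the 10 members. The other of the 4 is Hey1. Each line gives the 250 bases before the RefSeq start on the gene's strand, 5′ to 3′, and capitals mark matches, on either strand, to 4 motifs: TGGGAA (the core bound by RBPJ), CACGTG (an E box), GGGCGG (a GC box) and AGGAAG (ETS-type).
Dll4, chr2:119325534-119325783, plus strand: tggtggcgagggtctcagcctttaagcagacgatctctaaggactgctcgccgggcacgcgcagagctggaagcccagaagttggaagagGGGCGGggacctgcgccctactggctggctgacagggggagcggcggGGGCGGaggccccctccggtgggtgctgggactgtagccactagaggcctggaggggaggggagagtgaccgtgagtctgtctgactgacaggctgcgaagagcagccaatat
Notch4, chr17:34564045-34564294, plus strand: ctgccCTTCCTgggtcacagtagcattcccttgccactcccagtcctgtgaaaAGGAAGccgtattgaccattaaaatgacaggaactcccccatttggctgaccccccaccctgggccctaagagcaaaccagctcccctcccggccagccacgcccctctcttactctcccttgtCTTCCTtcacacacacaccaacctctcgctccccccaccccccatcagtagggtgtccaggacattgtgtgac
Nrarp, chr2:25180508-25180757, plus strand: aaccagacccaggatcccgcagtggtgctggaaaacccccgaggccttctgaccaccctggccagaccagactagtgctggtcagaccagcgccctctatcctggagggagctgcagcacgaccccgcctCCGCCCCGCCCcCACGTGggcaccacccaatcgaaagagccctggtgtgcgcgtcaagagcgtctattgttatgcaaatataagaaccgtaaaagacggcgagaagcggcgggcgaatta
The Dll4 window held 2 GC boxes, the Notch4 window 3 ETS-type matches and no GC box, and the Nrarp window 2 overlapping GC boxes followed by an E box. Across 32851 promoters of the table the GC box was in 32.7%, the ETS-type letters in 29.5%, the RBPJ core in 21.6% and the E box in 6.02%. Of the 8 member promoters, 6 held a GC box and 1, that of Hey2, held the RBPJ core. These are matches of letters in a window and no more. The base composition of the windows also differed, with 65.6% G and C in Dll4, 61.2% in Nrarp and 58.4% in Notch4. The median over all promoters was 52.4%.

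Among these genes, the tumour vessels carried mostly Dll4, Notch4 and Notch1 transcripts. Levels between genes were compared as the deposited TPM, which is scaled to transcript length. Notch4 had the highest median over the 20 libraries at 123 TPM (range 13.2 to 229), above 99.3% of 21560 protein-coding genes. Dll4 followed with 56.7 TPM (6.43 to 118) and Notch1 with 28.6 TPM (3.78 to 110). Hey1 had a median of 8.82 TPM, Jag2 8.76, Nrarp 7.41, Notch2 3.73, Jag1 2.75 and Hes1 1.38 TPM. Hey2 was listed at 0 TPM in 16 of 20 libraries, with 14 counts in all.

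Dll4 was the leading ligand of the 3 in each library. It had more TPM than Jag1 in 20 of 20 libraries, with a ratio of 1.45 to 90.7 and a median of 16.7, and more than Jag2 in 20 of 20, with a ratio of 2.32 to 35.7. Notch1 had more TPM than Notch2 in 20 of 20 libraries (ratio 1.15 to 93.8). Notch4 also had more TPM than Notch1 in 20 of 20 (ratio 1.49 to 9.9), but that order leans on the lengths RSEM assigned. The median effective length of Notch4 was 2651.5 bases although its longest annotated transcript has 6591, and for Notch1 it was 7722 of 9488 bases. By counts alone the Notch4 to Notch1 ratio was 0.641 to 2.67 with a median of 1.25, and it was above 1 in 14 of 20 libraries.

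**Figure D1:**
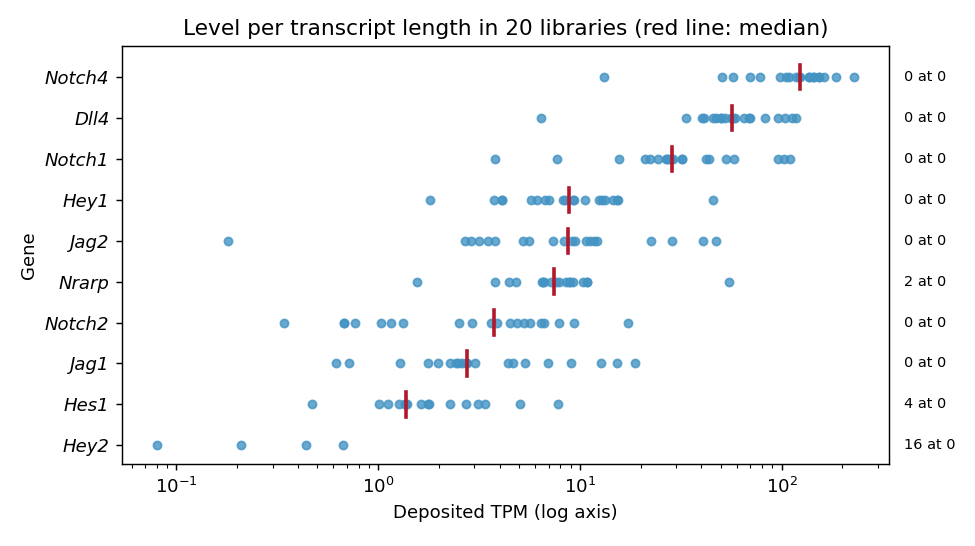
Deposited TPM of the 10 genes on a log axis, with 1 point per library, a red line at the median of 20 libraries and the number of libraries listed at 0 on the right. Notch4, Dll4 and Notch1 lie to the right of the other genes, and Hey2 has 4 points because 16 libraries are at 0.

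The ligand Dll4 (ENSMUSG00000027314, chr2:119325784-119335962, GRCm38 as in GENCODE M21) had its highest mean CPM in Tie2Cre_H2Abf. It had 192, 253, 255 and 292 CPM in Tie2Cre_H2Abf libraries, against 71.4, 92.6 and 86.9 CPM in Tie2Cre libraries. Each of the 4 Tie2Cre_H2Abf values lay above each Tie2Cre value. Dll4 had 162, 131 and 119 CPM in TCRKO, 97.4, 132 and 151 CPM in libraries labelled CD4KO, and 149, 79.7 and 154 CPM in libraries labelled CD8KO. The WT libraries spread widest, at 247, 230, 53.3 and 133 CPM, and their range takes in all values of TCRKO, CD4KO, CD8KO and Tie2Cre. In the order of means, Tie2Cre_H2Abf (248 ± 41.7 CPM, SD, n = 4) was followed by WT (166 ± 90.2), TCRKO (137 ± 22.4), CD8KO (128 ± 41.6), CD4KO (127 ± 27.2) and Tie2Cre (83.7 ± 11.0). Only the step between CD4KO and Tie2Cre separated neighbours whose libraries did not overlap.

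Jag1 (ENSMUSG00000027276, chr2:137081456-137116644), the Jagged ligand that competes with Dll4, was low and even in TCRKO. It had 5.17, 8.79 and 6.59 CPM in TCRKO libraries, against 53.3, 12.5, 33.6 and 2.65 CPM in WT libraries. Those WT values include both the highest and nearly the lowest Jag1 level of the series, so the groups overlapped. Jag1 averaged 9.74 ± 5.03 CPM in Tie2Cre_H2Abf (n = 4), 17.6 ± 9.51 in CD4KO, 15.6 ± 7.28 in CD8KO and 10.4 ± 8.51 in Tie2Cre (SD, n = 3 each).

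Jag2 (ENSMUSG00000002799, chr12:112907819-112929776) showed no step between neighbouring groups. It had 25.7, 32.3, 31.0 and 33.9 CPM in the 4 Tie2Cre_H2Abf libraries, the narrowest spread of its 6 groups, against 9.83, 28.8 and 54.8 CPM in Tie2Cre libraries. Its highest values were 79.0 CPM in CD4KO_9770 and 78.1 CPM in WT_9748, and its lowest was 1.64 CPM in WT_9771.

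Among the receptors, Notch4 (ENSMUSG00000015468, chr17:34564268-34588503), whose expression is largely confined to endothelium, had 360, 289, 419 and 403 CPM in Tie2Cre_H2Abf libraries, against 94.9, 189 and 249 CPM in Tie2Cre libraries. The lowest Tie2Cre_H2Abf library lay above the highest Tie2Cre library. Notch4 had 222 to 246 CPM in TCRKO, 69.2 to 368 in CD4KO, 184 to 238 in CD8KO and 164 to 344 in WT. Of these, CD4KO and WT reached into the range of Tie2Cre_H2Abf, and TCRKO and CD8KO did not.

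Notch1 (ENSMUSG00000026923, chr2:26457903-26516663), the receptor through which Dll4 restrains sprouting, ranged from 39.3 CPM in CD4KO_9768 to 502 CPM in WT_9748. It had 110, 141 and 92.1 CPM in TCRKO libraries, against 502, 201, 79.6 and 201 CPM in WT libraries. The TCRKO mean of 114 ± 25.0 CPM was the lowest of the 6 groups, but WT_9771 lay below all 3 TCRKO libraries. Notch1 had 256, 184, 326 and 324 CPM in Tie2Cre_H2Abf libraries, against 140, 295 and 107 CPM in Tie2Cre libraries.

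Notch2 (ENSMUSG00000027878, chr3:98013527-98150361), a receptor also made by macrophages and mural cells, took another course. It had 59.4, 41.5 and 35.2 CPM in TCRKO libraries and 46.5, 40.2 and 41.4 CPM in libraries labelled CD4KO, against 14.7, 26.1, 25.4 and 2.46 CPM in WT libraries. All 6 of those TCRKO and CD4KO values lay above all 4 WT values, and also above the values of the other 3 groups. The third CD4-deficient background did not share this: Notch2 had 7.08, 9.49, 16.9 and 8.12 CPM in Tie2Cre_H2Abf libraries, against 17.8, 23.6 and 3.9 CPM in Tie2Cre libraries. Against WT, 5.57% (TCRKO) and 2.73% (CD4KO) of all tested genes were higher without overlap. No planned comparison joined TCRKO and CD4KO alone, and the share of all genes that separate them from every other group was not counted.

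**Figure D2:**
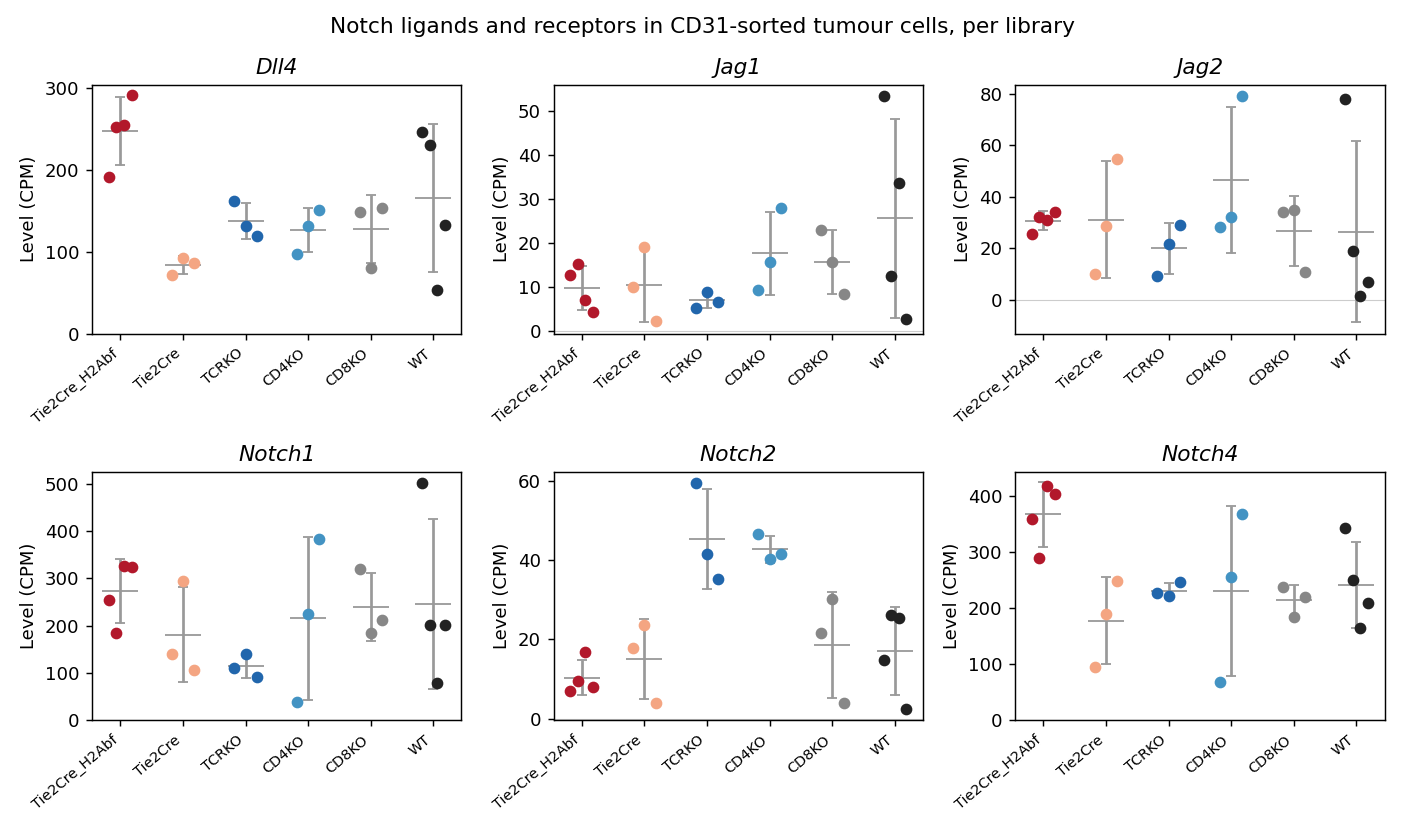
Level of the 3 ligands and 3 receptors in CPM by host background; each point is a library, and the grey line and bar give the mean and SD (n = 4, 3, 3, 3, 3, 4 from left to right). Dll4 and Notch4 are higher in the 4 Tie2Cre_H2Abf libraries than in the 3 Tie2Cre libraries without overlap, and Notch2 is higher in TCRKO and CD4KO than in WT without overlap.

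The target Hey1 (ENSMUSG00000040289, chr3:8663359-8667256) had 26.0, 18.1, 21.4 and 31.7 CPM in Tie2Cre_H2Abf libraries, against 2.65, 14.4 and 5.16 CPM in Tie2Cre libraries. The groups did not overlap. Its single highest value was 35.3 CPM in WT_9771, the satellite-rich library, while the other WT libraries had 12.7, 12.5 and 5.49 CPM. Hey1 had 15.4, 8.91 and 12.7 CPM in TCRKO, 3.06, 17.4 and 13.1 CPM in CD4KO and 20.2, 17.0 and 21.0 CPM in CD8KO.

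Nrarp (ENSMUSG00000078202, chr2:25180758-25183339) had 32.9, 15.4, 18.3 and 24.8 CPM in Tie2Cre_H2Abf libraries, against 0, 12.1 and 9.82 CPM in Tie2Cre libraries. Again the groups did not overlap. It had 15.6, 24.4 and 17.4 CPM in libraries labelled CD8KO, against 15.1, 5.13, 0 and 12.5 CPM in WT libraries, with no overlap but only a small gap between 15.6 and 15.1 CPM. Both zeros of Nrarp were in the satellite-rich libraries, where 3 counts, the limit that a count of 0 allows, correspond to 1.13 CPM in Tie2Cre_9501 and 2.46 CPM in WT_9771. The antisense gene Gm38287 overlaps Nrarp over 2559 bases and holds 178 counts beside 2253 for Nrarp. Nextera XT libraries do not mark strand, so reads of the pair cannot be told apart.

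Hes1 (ENSMUSG00000022528, chr16:30064384-30067796) was scarce, with 187 counts over the 20 libraries and at most 3.98 CPM. It had 1.76, 2.37, 1.07 and 1.89 CPM in Tie2Cre_H2Abf libraries, against 0, 0.487 and 1.13 CPM in Tie2Cre libraries, and it was at 0 in 3 of 4 WT libraries. Hey2 (ENSMUSG00000019789, chr10:30832359-30842801), a Hey1 relative tied to arterial identity, had no count in any Tie2Cre_H2Abf, Tie2Cre or TCRKO library. Its highest level was 2.46 CPM in WT_9771, from 3 counts.

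**Figure D3:**
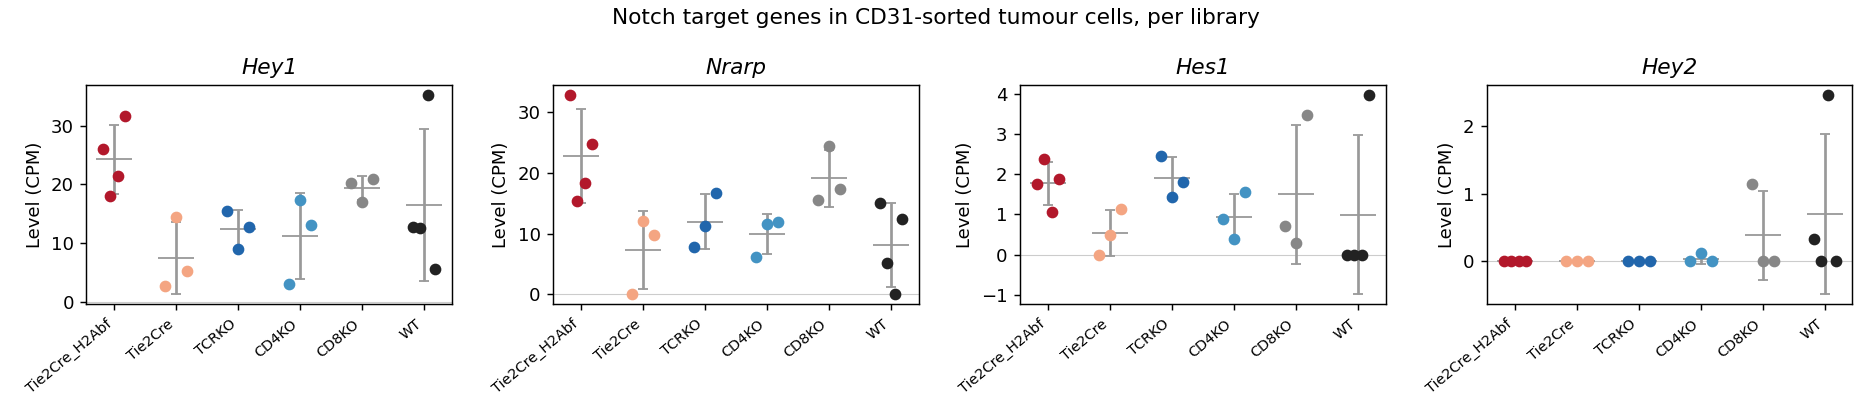
Level of the 4 target genes in CPM by host background, with 1 point per library and the mean and SD in grey. Hey1 and Nrarp are higher in Tie2Cre_H2Abf than in Tie2Cre without overlap, while Hes1 reaches at most 3.98 CPM and Hey2 at most 2.46 CPM.

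The deletion of MHC class II in Tie2-expressing cells was compared with Tie2Cre alone. In CPM, the ligand Dll4, the receptor Notch4 and the targets Hey1 and Nrarp separated the groups. Each had higher values in all 4 Tie2Cre_H2Abf libraries than in all 3 Tie2Cre libraries, and the other members did not. In the deposited TPM only Dll4 of these 4 stayed apart, at 57.5 to 113 TPM against 33.4 to 52.4 TPM. Notch4 overlapped there, at 105 to 229 and 57.6 to 162 TPM. Hey1 (8.26 to 15.5 and 1.81 to 9.22 TPM) and Nrarp (6.52 to 10.9 and 0 to 6.62 TPM) did too. Of the 9 tested members 0 passed the adjusted p of edgeR's quasi-likelihood test with Benjamini-Hochberg adjustment over 14875 genes, where 0.0202% of all genes did. Hey2 was too low to be tested. Dll4 was higher by a log2 fold change of 1.57 ± 0.42 (SE; edgeR unadjusted p = 0.00100, adjusted p = 0.576). Hey1 differed by 1.69 ± 0.68 (edgeR unadjusted p = 0.0200) and Notch4 by 1.05 ± 0.43 (edgeR unadjusted p = 0.0210), both with an edgeR adjusted p of 0.576. Without Tie2Cre_9502 the Hey1 difference was 2.62. Nrarp differed by 1.61 ± 0.88 (edgeR unadjusted p = 0.0776). At an unadjusted p under 0.05 there were 3 of 9 members, all higher, against 8.54% of all genes in either direction and 2.69% higher. In CPM the groups did not overlap for Dll4, Notch4, Hey1 and Nrarp, 4 of 9 members. On that scale 5.28% of all tested genes were higher without overlap. Notch1 differed by 0.59 ± 0.56, Hes1 by 1.62 ± 1.70, Notch2 by -0.54 ± 0.68, Jag1 by -0.09 ± 0.77 and Jag2 by -0.03 ± 0.76 on the log2 scale. With 2 SE to either side, the interval of Jag1 and Jag2 still holds changes as large as that of Notch4. The members' median was 1.05, against -0.24 over all genes tested.

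DESeq2 on the same 14875 genes called 57, where edgeR called 3. Dll4 alone of the members passed with DESeq2, at a log2 fold change of 1.39 (DESeq2 adjusted p = 0.00589), and the all-gene median was -0.43. The endothelial content of the libraries moved in the same direction. The summed level of 14 endothelial marker genes was 6415 to 9939 CPM in Tie2Cre_H2Abf libraries, against 4125 to 8016 CPM in Tie2Cre libraries. In bulk samples, more cells of a type and more RNA per cell cannot be told apart. As a share of that endothelial sum, Dll4 was 2.45% to 3.94% in Tie2Cre_H2Abf and 1.16% to 1.73% in Tie2Cre, without overlap. Hey1 was 0.248% to 0.333% of the sum in Tie2Cre_H2Abf and 0.0641% to 0.179% in Tie2Cre, and Nrarp was 0.213% to 0.421% in Tie2Cre_H2Abf and 0% to 0.186% in Tie2Cre, also without overlap. Notch4 did overlap on this scale, with 4.05% to 4.88% in Tie2Cre_H2Abf and 2.30% to 4.72% in Tie2Cre. On this scale the TCRKO means lay above those of Tie2Cre_H2Abf for these 4 genes, with overlapping ranges. Dll4 averaged 3.37% in TCRKO, 3.08% in Tie2Cre_H2Abf and 2.84% in WT. In the same order Notch4 averaged 5.84%, 4.51% and 4.58%, Hey1 0.311%, 0.296% and 0.431%, and Nrarp 0.317%, 0.281% and 0.127%. How many of all genes lie without overlap on this scale was not counted. The part of endothelial content in these differences was not tested. When edgeR was scaled to these markers, a choice made after the data were seen, Dll4 was at 1.03 ± 0.32 (edgeR unadjusted p = 0.00341, adjusted p = 0.379), Hey1 at 1.35 ± 0.72 and Notch4 at 0.53 ± 0.33, with an all-gene median of -0.80. Without WT_9771 and Tie2Cre_9501, Dll4 was at 1.44 ± 0.36, Hey1 at 1.30 ± 0.65 and Notch4 at 0.71 ± 0.40 (edgeR adjusted p = 0.392 for Dll4 and 0.867 for the other two), and Nrarp at 1.03 ± 0.60.

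Lists of other cell types also differed, in both directions, and the mural ranges overlapped. The 10 mural genes summed to 504 to 778 CPM in Tie2Cre_H2Abf and 228 to 507 CPM in Tie2Cre, but most of this is Mcam, an adhesion molecule of pericytes that endothelial cells also make, at a median of 418 CPM over all libraries, while the pericyte genes Pdgfrb and Rgs5 had medians of 0.482 and 3.56 CPM. The 6 lymphatic genes summed to 141 to 192 CPM in Tie2Cre_H2Abf and 65.0 to 102 CPM in Tie2Cre, mostly from Flt4, a VEGF receptor also made by sprouting blood vessels (median 120 CPM), while Prox1, the regulator of lymphatic identity, had a median of 3.2 CPM. The 8 fibroblast genes went the other way, at 0.708 to 6.76 CPM in Tie2Cre_H2Abf and 6.95 to 40.8 CPM in Tie2Cre. The part of these lists in the Notch result was not tested.

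Libraries labelled TCRKO and libraries labelled CD4KO were each compared with WT, which serves as control for both. In both, the values of the receptor Notch2 lay above those of WT, and in TCRKO the mean of the ligand Jag1 lay below that of WT. Of 9 tested members 0 passed the adjusted p in either comparison, where 0.0269% of all genes did in TCRKO and 0.0% in CD4KO. Notch2 differed by a log2 fold change of 1.42 ± 0.67 in TCRKO (edgeR unadjusted p = 0.0456, adjusted p = 0.573) and by 1.33 ± 0.67 in CD4KO (edgeR unadjusted p = 0.0594, adjusted p = 0.587). It was the single member higher without overlap in each comparison, where 5.57% (TCRKO) and 2.73% (CD4KO) of all genes were higher without overlap. Jag1 was lower in TCRKO at -1.89 ± 0.82 (edgeR unadjusted p = 0.0288, adjusted p = 0.559), which makes 2 of 9 members under an unadjusted p of 0.05, against 8.65% of all genes. Without WT_9748, which holds the highest Jag1 level, the Jag1 difference was -1.19. Notch1 stood at -1.11 ± 0.57 in TCRKO (edgeR unadjusted p = 0.0621). In CD4KO, 0 members were under that unadjusted p, against 8.58% of all genes, and the next member was Jag2 at 0.79 ± 0.75 (edgeR unadjusted p = 0.304), which came to 0.16 without CD4KO_9770 and 2.26 without WT_9748. Without WT_9771 and Tie2Cre_9501, Notch2 was at 1.73 ± 0.71 in TCRKO (edgeR adjusted p = 0.393) and 1.60 ± 0.71 in CD4KO (edgeR adjusted p = 0.458). In TCRKO Jag1 was then at -1.66 ± 0.83 and Notch1 at -1.32 ± 0.51, and in CD4KO Jag2 was at 0.40 ± 0.63 and Dll4 at -0.67 ± 0.32.

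With all libraries Dll4 was at -0.28 ± 0.40 in TCRKO and -0.39 ± 0.41 in CD4KO, and Notch4 at -0.07 ± 0.42 in both. Scaled to the endothelial markers, the signs in TCRKO turned for Dll4 (0.24), Notch4 (0.35) and Jag2 (0.33). The endothelial sum was 3116 to 4714 CPM in TCRKO libraries, against 2825 to 6917 CPM in WT libraries. Notch2 was at 1.57 ± 0.73 in TCRKO and 1.08 ± 0.73 in CD4KO on that scale. Macrophages and mural cells also make Notch2, so the sums of both lists are given. The 12 macrophage genes summed to 336 to 812 CPM in TCRKO and 478 to 735 CPM in CD4KO, against 238 to 709 CPM in WT. They summed to 98.7 to 631 CPM in Tie2Cre_H2Abf and 210 to 312 CPM in Tie2Cre. None of the 12 was at 0 in its median library, and Csf1r, which defines the lineage, ran from 4.2 to 184 CPM. The 10 mural genes summed to 289 to 468 CPM in TCRKO and 288 to 553 CPM in CD4KO, against 208 to 527 CPM in WT. The part of either list in the Notch2 level was not tested.

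Libraries labelled CD8KO and libraries of Tie2Cre alone were the CD4-competent groups compared with WT. In libraries labelled CD8KO 0 of 9 members passed (0.0% of all genes did), and Nrarp, without overlap against 3.69% of all genes, differed by 1.17 ± 0.83 (edgeR unadjusted p = 0.170, adjusted p = 0.659). That difference was 0.86 ± 0.55 without the satellite-rich libraries. Dll4 was at -0.38 ± 0.41 (edgeR unadjusted p = 0.355), which came to -0.06 without CD8KO_9752 and -0.67 without WT_9771. At an unadjusted p under 0.05 there were 0 members, against 10.5% of all genes.

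In Tie2Cre against WT, 8 of 9 tested members had a negative log2 fold change, with a median of -0.45 against 0.02 over all genes. Under limma-voom that of Hes1 was positive (0.91), and without the satellite-rich libraries that of Nrarp was (0.03). None passed the adjusted p, as none of all genes did (0.0%), and no member was without overlap, where 2.86% of all genes were higher and 1.34% lower without overlap. Dll4 was at -0.99 ± 0.41 (edgeR unadjusted p = 0.0241, adjusted p = 0.693), the 1 member of 9 under an unadjusted p of 0.05, against 6.85% of all genes. Hey1 was at -1.09 ± 0.67 (edgeR unadjusted p = 0.116, adjusted p = 0.804), which came to -0.44 without WT_9771, -1.98 without Tie2Cre_9502 and -0.05 without WT_9771 and Tie2Cre_9501, while Dll4 was then at -1.14 ± 0.36. All Tie2Cre libraries have numbers in another range than all WT libraries, and the labels do not explain these ranges. Host background and number range therefore cannot be told apart in Tie2Cre against WT, for Dll4 or any other member. The same Tie2Cre libraries are those that Tie2Cre_H2Abf is compared with, and both of these groups lie in the same number range. Tie2Cre_H2Abf and WT overlapped in Dll4, at 192 to 292 CPM and 53.3 to 247 CPM.

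**Figure D4:**
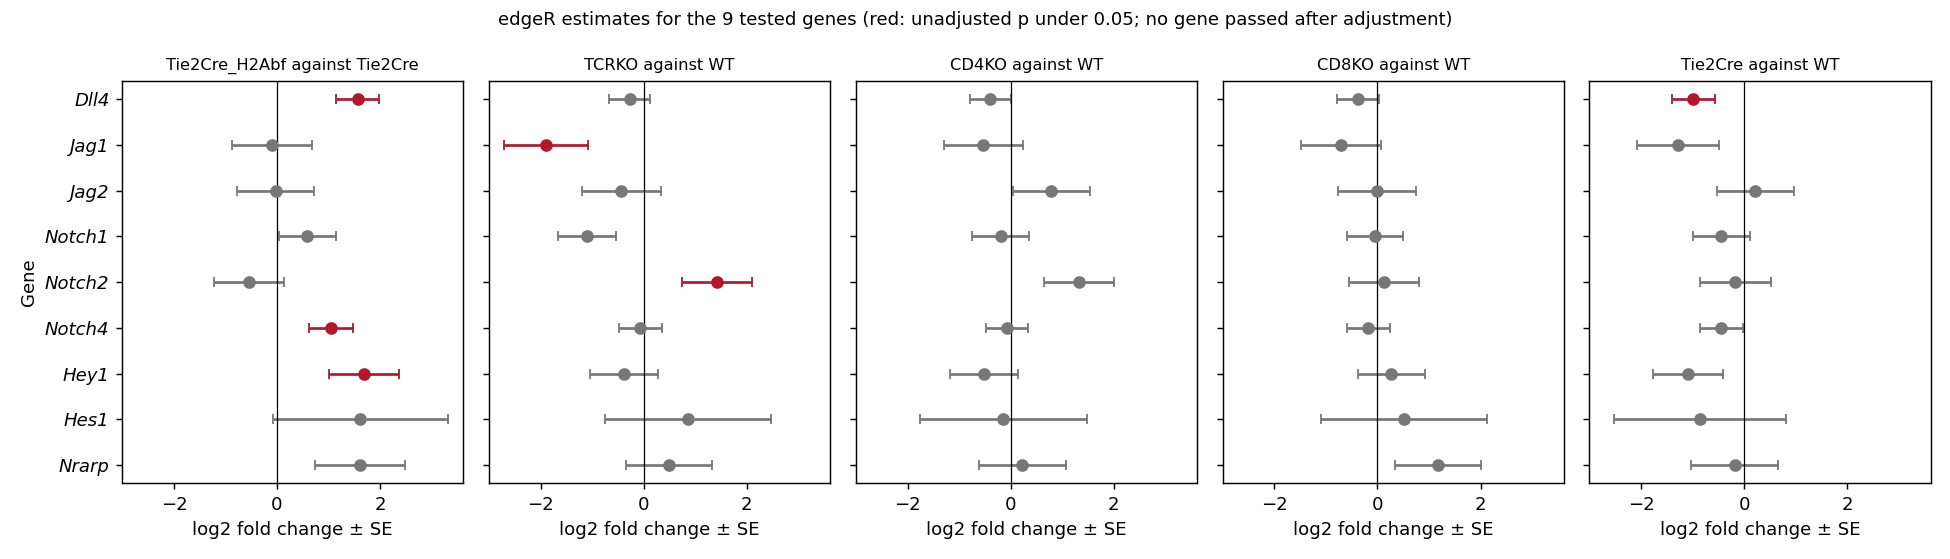
edgeR log2 fold change and SE of the 9 tested genes in 5 comparisons, in red where the unadjusted p is under 0.05. Dll4, Notch4 and Hey1 are red and positive in Tie2Cre_H2Abf against Tie2Cre, Jag1 (negative) and Notch2 (positive) in TCRKO against WT, and Dll4 (negative) in Tie2Cre against WT.

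The submitters' division asks whether CD4-deficient hosts (n = 10) differ from CD4-competent hosts (n = 10). The 2-group model for this takes libraries of different backgrounds as replicates. For these genes the 2 sides overlapped throughout, and of all genes 0.0% were higher and 0.0% lower without overlap. Dll4 ran from 97.4 to 292 CPM with a median of 157 in deficient hosts and from 53.3 to 247 CPM with a median of 113 in competent hosts, a log2 fold change of 0.41 ± 0.25 (edgeR unadjusted p = 0.113, adjusted p = 0.903). Notch2 ran from 7.08 to 59.4 CPM with a median of 37.7 in deficient hosts and from 2.46 to 30.1 CPM with a median of 19.6 in competent hosts, a difference of 0.81 ± 0.45 (edgeR unadjusted p = 0.0855, adjusted p = 0.885). Of the 8 tested members (Hey2 and Hes1 were too low here) 0 passed, as did 0.0% of 9365 genes, and 0 were under an unadjusted p of 0.05, against 5.67% of all genes. Without WT_9771 and Tie2Cre_9501, Dll4 was at 0.28 ± 0.24 and Notch2 at 0.99 ± 0.49. The libraries fall into 2 number ranges that the labels do not explain, and the ranges gave opposite signs. Among libraries numbered 95xx (Tie2Cre_H2Abf and Tie2Cre) Dll4 was at 1.52 and Notch2 at -0.58. Among those numbered 97xx (TCRKO and CD4KO against CD8KO and WT) Dll4 was at -0.18 and Notch2 at 1.29. The class II deletion lies in 1 range and the TCRKO and CD4KO labels in the other, so range and kind of deficiency cannot be told apart.

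Whether class II deletion and the TCRKO background differ in effect was tested as the difference of their log2 fold changes, each against its own control. That difference was 1.84 ± 0.58 for Dll4 (edgeR unadjusted p = 0.00398, adjusted p = 0.522), 2.07 ± 0.94 for Hey1 (edgeR unadjusted p = 0.0374, adjusted p = 0.705) and 1.70 ± 0.79 for Notch1 (edgeR unadjusted p = 0.0425, adjusted p = 0.718) on the log2 scale. The Notch1 value was 1.08 without WT_9748 and 2.27 without Tie2Cre_9502. Notch2 was the 1 member with a negative difference, at -1.95 ± 0.95 (edgeR unadjusted p = 0.0510). None passed the adjusted p, as did 0.0% of all genes, and 3 of 9 were under an unadjusted p of 0.05, all positive, against 6.8% of all genes in either direction and 3.04% positive. Without WT_9771 and Tie2Cre_9501 the difference was 1.93 ± 0.47 for Dll4 (edgeR adjusted p = 0.218), 0.96 ± 0.86 for Hey1, 1.74 ± 0.75 for Notch1 and -2.15 ± 1.00 for Notch2. DESeq2 on all 20 libraries passed Dll4 here too, at 1.71 (DESeq2 adjusted p = 0.0321). Of all 14875 genes it called 72 here, where edgeR called 0. A test for any difference among the 6 backgrounds gave the smallest p to the same 2 genes, Dll4 (edgeR unadjusted p = 0.0176) and Notch2 (edgeR unadjusted p = 0.0211), both with an edgeR adjusted p of 0.498. That is 0 of 9 past the adjusted p, against 0.0605% of all genes, and 2 of 9 under the unadjusted 0.05, against 9.34%. DESeq2 passed Dll4 in this test (DESeq2 adjusted p = 0.0221), where it called 271 of all 14875 genes and edgeR called 9.

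The rest of the pathway was described from 49 other genes in 6 lists, of which 45 were tested in the 6-group model and 40 by CD4 status. None of them passed the adjusted p of edgeR in any of the 8 tests. In Tie2Cre_H2Abf against Tie2Cre 32 were higher and 13 lower, with a median of 0.32 against -0.24 for all genes, and 3 were under an unadjusted p of 0.05, all higher, against 8.54% of all genes in either direction and 2.69% higher. These were Cxcr4, a chemokine receptor of tip cells (1.95 ± 0.68, edgeR unadjusted p = 0.00787), Unc5b, a netrin receptor of arterial and tip cells (1.56 ± 0.58, edgeR unadjusted p = 0.0129), and the nuclear co-activator Maml3 (1.58 ± 0.73, edgeR unadjusted p = 0.0416), all with an edgeR adjusted p of 0.576. Unc5b had 107 to 157 CPM in Tie2Cre_H2Abf libraries, against 30.6 to 61.5 CPM in Tie2Cre libraries. Cxcr4 had 132 to 339 CPM in Tie2Cre_H2Abf libraries, against 28 to 98.1 CPM in Tie2Cre libraries. Neither pair of ranges overlapped, where 5.28% of all genes were higher without overlap. Maml3, Aph1a, Efnb2, Mfng and Fbxw7 of the lists were also higher without overlap. Heyl, a listed target that was not tested, was lower without overlap, at 0 to 0.579 CPM in Tie2Cre_H2Abf and 0.609 to 1.89 CPM in Tie2Cre. These levels rest on 4 counts in all Tie2Cre_H2Abf libraries and 17 in all Tie2Cre libraries. The share of all genes lower without overlap is not given here. Of all genes 41.6% were higher. By role, 4 of 5 sugar-adding enzymes, 7 of 8 cleavage genes, 7 of 8 nuclear factors, 6 of 11 turnover genes, 7 of 10 other targets and 1 of 3 other ligands and receptor were higher. The lists do not divide genes by whether Notch signalling raises or lowers them. These counts therefore give no direction of pathway activity.

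In TCRKO against WT 17 of the 45 were higher and 28 lower, with a median of -0.21 beside -0.20 for all genes, and 4 of the 45 were under an unadjusted p of 0.05, against 8.65% of all genes. The arterial genes Efnb2, an ephrin ligand, and Gja5, a gap junction protein, were lower at -1.21 ± 0.51 (edgeR unadjusted p = 0.0259, adjusted p = 0.557) and -1.30 ± 0.63 (edgeR unadjusted p = 0.0491, adjusted p = 0.577). Psenen, a gamma-secretase subunit, was higher at 1.59 ± 0.72 (edgeR unadjusted p = 0.0358, adjusted p = 0.563). The fourth was Dtx1, a ubiquitin ligase that binds Notch, with 1 count in all TCRKO libraries and 74 in all WT libraries. Other arterial genes of the same list differed by less than their SE, Gja4 by -0.12 ± 0.54, Sox17 by -0.18 ± 0.65 and Unc5b by -0.20 ± 0.56. Efnb2 also led the difference between the effects of class II deletion and TCRKO, at 2.10 ± 0.72 (edgeR unadjusted p = 0.00718, adjusted p = 0.578). It averaged 42.1 ± 6.30 CPM in Tie2Cre_H2Abf (n = 4) and 22.6 ± 12.4 in Tie2Cre (n = 3), and 18.4 ± 8.61 in TCRKO (n = 3) and 42.3 ± 22.8 in WT (n = 4). By CD4 status the gene with the smallest p was Neurl1b, a ubiquitin ligase for Notch ligands, at -0.58 ± 0.23 (edgeR unadjusted p = 0.0177, adjusted p = 0.794).

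Of the ligands and the receptor outside the main set, Dll1 was the one at a level like that of Jag2, with a median of 6.3 TPM over the 20 libraries. Notch3, the receptor of mural cells, had a median of 0.01 TPM and a highest level of 21.5 CPM, Dll3 had 2 counts in all and Dlk1 22. Rbpj itself had a median of 2.06 TPM.

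**Figure D5:**
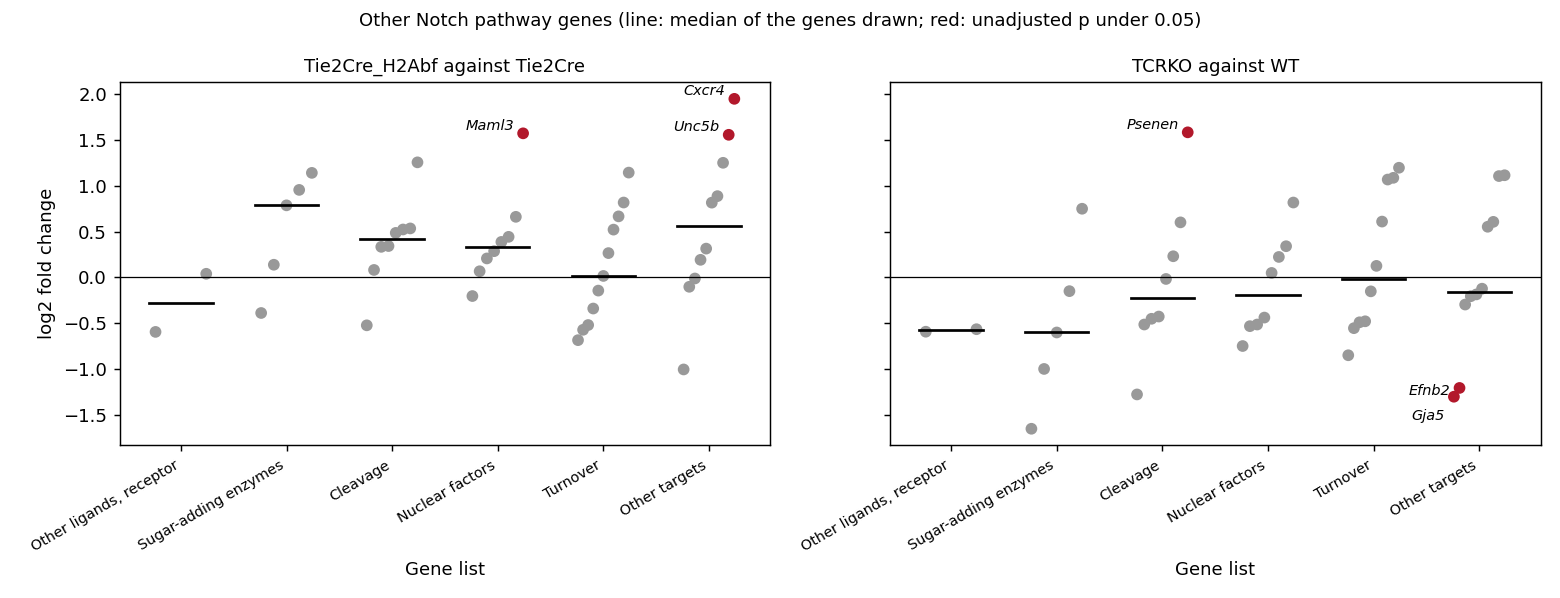
edgeR log2 fold change of the other Notch pathway genes by list in Tie2Cre_H2Abf against Tie2Cre (44 genes drawn) and TCRKO against WT (43 drawn), where genes with 3 counts or fewer in a compared group are left out. Points lie mostly above 0 on the left, and the red points have an unadjusted p under 0.05.

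Across the 20 libraries the members did not all vary together. Dll4 ranked most like Notch4 among the members (Spearman's rho 0.794 over 20 libraries, 0.738 without the satellite-rich ones), and Notch1 like Notch4 (0.65 and 0.575) and Dll4 (0.606 and 0.517). Hey1 and Nrarp had a rho of 0.548, or 0.752 over 18 libraries. Notch2 had a rho of -0.26 with Dll4 and -0.422 with Nrarp. Among 4201 genes with enough counts, the one most like Notch1 was Cdh5 (rho 0.938, and 0.924 over 18 libraries), where the median gene had 0.242. For Dll4 it was Tspan14, which codes for a tetraspanin that helps ADAM10 mature (rho 0.851, median gene 0.2), followed by Creb3l2 and Lamc1. For Notch4 it was Sipa1l2 (0.872, and 0.831 over 18 libraries), for Notch2 Cyfip2 (0.738), for Hey1 Eml1 (0.788), for Nrarp Ext1 (0.791, and 0.825 over 18 libraries), for Jag2 Fbxw5 (0.83) and for Jag1 Abcc4 (0.702). For the other members the nearest gene changed without the satellite-rich libraries: over 18 libraries it was Cmklr1 for Dll4 (0.829), Tbrg4 for Notch2 (0.82), Rasgrp3 for Hey1 (0.922), Pygb for Jag2 (0.812) and Phrf1 for Jag1 (0.837). These are descriptions over libraries that share groups, depth and endothelial content.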

How the data were processed

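Total RNA of the sorted cells was amplified with the MATQ method and built into Nextera XT libraries, per the labels' protocols. The tools were bcl2fastq 2.17, STAR, RSEM 1.2.28 and DESeq2 with mouse build GRCm38, per the submitters' processing notes; no source used here names the annotation release. The authors deposited, for each of 20 libraries and 46983 gene IDs, RSEM's expected counts (not normalized), TPM values (scaled to length and depth, per the file headers) and effective lengths, another RSEM quantity. Expected counts, 4.45% of them not whole, were rounded. GENCODE M21 gave symbols for 46488 IDs.

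Groups came from the labels. edgeR 4.0.16 in R 4.3.3 (quasi-likelihood test, robust, TMM factors of 0.523 to 3.69, filterByExpr) was fitted on the whole table, with a 2-group model for CD4 status (9365 genes) and a 6-group model for the rest (14875 genes). P-values were adjusted by Benjamini-Hochberg over the genes of each fit, with a threshold of 0.05. The biological coefficient of variation was 0.736 and 0.995 in these models. SEs come from the F statistic. All members are given with their values. The planned rule named fold changes for members with an unadjusted p under 0.05, filled up to 2 per comparison. Fold changes of some other members are given beyond that rule. The members and lists were chosen with earlier results of these data known. Alternatives were DESeq2 1.42.0, limma-voom (limma 3.58.1), RLE factors, other filters, effective-length offsets, only the groups compared, number ranges, leaving out libraries, and scaling to endothelial markers. The scripts were tested on simulated data.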

Additional observations from a re-analysis of the deposited data

Results flagged for a closer look

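In 39 groups of 4 or 10 libraries, Dixon's 95% limit gave 6 flags for values far from their neighbours. By chance it flags about 1 in 20 groups when values are normally distributed. Levels with many zeros are not, and the groups share libraries, so the number of flags cannot be set against that rate. In the 10 libraries of CD4-deficient hosts, CD4KO_9770 stood apart with 27.9 CPM of Jag1 and with 79.0 CPM of Jag2. Hey2 stood apart in WT_9771 at 2.46 CPM, both among the 4 WT libraries and among the 10 libraries of CD4-competent hosts, a value that rests on 3 counts in a library rich in satellite-like counts. Hey2 in CD4KO_9769, at 0.128 CPM, was flagged among the CD4-deficient hosts because it is the 1 library there with any count. Hes1 stood apart in WT_9772 at 3.98 CPM, where the other 3 WT libraries had no count.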

How the results depend on the processing

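The count of members past the adjusted p was 0 in all 8 tests and stayed at 0 under each alternative other than DESeq2, leaving out each library included (0 to 0). DESeq2 called 1 member, Dll4, in Tie2Cre_H2Abf against Tie2Cre (1.39), in the test of any of the 6 backgrounds and in the difference of effects (1.71). Of all 14875 genes it called 57, 271 and 72 in these tests, where edgeR called 3, 9 and 0. The cause was not tested. Signs turned for 2 named results: by CD4 status Notch2 was at -0.58 in libraries numbered 95xx and Dll4 at -0.18 in those numbered 97xx. Leaving out 1 library at a time moved the Dll4 difference between Tie2Cre_H2Abf and Tie2Cre between 1.47 and 1.67, that of Hey1 between 1.31 and 2.62 and that of Notch4 between 0.75 and 1.39, and that of Notch2 in TCRKO between 1.07 and 1.72. No paired analysis was possible because each library number is used once. Depth limits Hes1, Hey2 and the zeros of Nrarp, since 3 counts come to 0.128 to 2.46 CPM depending on the library; such limits cover counting error only.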
